A study of Triticum turgidum subsp. durum with 24 samples.

Results

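The 150 genes described here were the steadiest transcripts of the developing durum wheat endosperm in this time course, and they were chosen by their own values. A gene was a candidate when its transcript had at least 20 TPM (transcripts per 1e+06 transcripts) in all 24 libraries and it was not in the study's list of 133 starch-related genes. Of 66559 transcripts listed, 1351 were candidates. Estimated counts were scaled to CPM, counts per 1e+06 counts of a library, with TMM factors, which rescale each library so that most genes keep a similar level, and the 150 candidates with the lowest coefficient of variation (CV, the SD as a percent of the mean) over the 24 libraries were taken. The label of a most stable group therefore restates the choice, and every CV below describes it without a test.

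The endosperms came from wild-type plants of the durum wheat (Triticum turgidum subsp. durum) variety Kronos, grown in controlled environment rooms and dissected free of the pericarp. They were taken at 6, 8, 10, 13, 15, 18, 20 and 30 days post anthesis (dpa), with 3 replicates from separate plants per timepoint, and no treatment or mutant was included. Each RNA sample pooled 6 endosperms of a spike up to 10 dpa, 4 from 13 to 18 dpa and 3 at 20 and 30 dpa, and some plants gave spikes to several timepoints. The libraries were poly-A selected and totalled 56180542 to 115799984 estimated counts.

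A reference gene is a transcript against which others are expressed in quantitative RT-PCR, and it serves this purpose only where its own level relative to the RNA put in does not move. In cereal endosperm this is hard to meet, because transcripts of storage proteins come to fill much of the messenger RNA pool while the tissue turns from cell division to filling and then to maturation. TMM-scaled CPM, the scale that chose the members, sets a level against most other genes and not against the RNA put in. Whether the members meet the requirement of a reference gene was therefore not tested. ATG8 proteins are ubiquitin-like proteins that are conjugated to the membrane lipid of autophagosomes, and a wheat ATG8d gene was the reference of the RT-PCR in this study. The other gene identifiers carry no names or roles in the files used here, so members are given by identifier and position.

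The copy of ATG8d that the primer list names, ATG8d-B1 (TRITD2Bv1G094560, chromosome 2B, 252999144 to 253001352 of Svevo.v1), was itself among the 150. The primers are shown because they define what the RT-PCR reference measured. Per the methods they were not specific to a homeolog, whereas every value below is for the B copy alone.
ATG8d_F: ggccagtttgtctacgtggt
ATG8d_R: taggcagagccgaaagtgtt

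The tissue label was checked with 7 starch genes. GBSS1-A2, which encodes the granule-bound starch synthase of the endosperm, ranged from 39.4 to 834 TPM, and none of the 6 endosperm genes among them was below 17.1 TPM in any library. GBSS2-B1, the form of the pericarp and vegetative organs, ranged from 0.208 to 14.5 TPM. It was listed highest at 10 dpa, at 8.71 to 14.5 TPM, and lowest at 30 dpa, at 0.208 to 0.436 TPM. The separation was narrower early: at 6 dpa GBSS2-B1 had 4.47 to 6.22 TPM and the endosperm gene SBE2b-A1 17.1 to 30.7 TPM. The TMM factors ran from 1.83 in a 6 dpa library to 0.486 in a 30 dpa library. The library of 13 dpa replicate 3 had a factor of 1.48, against 1.06 and 0.931 in replicates 1 and 2 of that timepoint.

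The CV of the 150 ran from 7.61 to 18.4% with a median of 15.7%, against a median of 32.7% and a highest value of 130% over the 1351 candidates. Counting error was a small part of it, since the CV that the counts alone would give had a median of 1.97% and a highest value of 5.20%. The limit fell in a dense part of the order: TRITD3Bv1G277300 and TRITD1Av1G037730 were the last inside at 18.3 and 18.4%, and TRITD7Av1G207780 and TRITD0Uv1G105520 were the next outside, both at 18.4%. The 14 starch-related genes that met the TPM limit had CVs of 31.1 to 69.1%. The steadiest of them were PGM-B1 (TRITD4Bv1G013910), for phosphoglucomutase, at 31.1%, and cPGI-A1 (TRITD1Av1G009070), for a cytosolic phosphoglucose isomerase, at 33.4%.

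**Figure D1:**
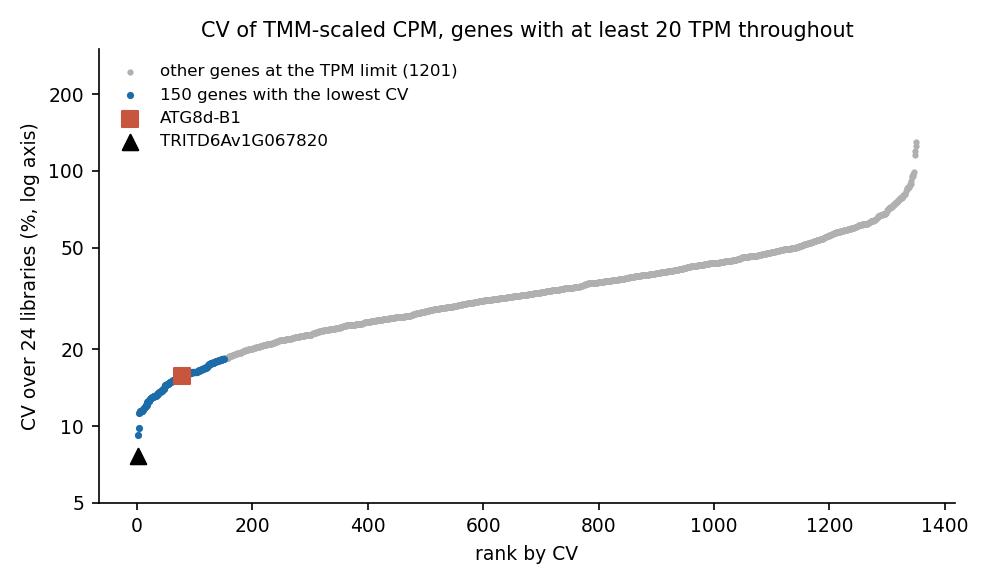
CV over the 24 libraries (percent, log axis) of the 1351 candidates in rank order, with the 150 members in blue, TRITD6Av1G067820 as a triangle and ATG8d-B1 as a square. The curve rises without a step at the limit of 150, and ATG8d-B1 lies inside it at rank 78 with a CV of 15.8%.

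The steadiest transcript was TRITD6Av1G067820 (chromosome 6A, 164547807 to 164548385). Replicates 1, 2 and 3 of day 6 had 73.3, 59.1 and 55.4 TMM-scaled CPM, those of day 8 had 60.5, 60.9 and 73.7, those of day 10 had 71.0, 63.5 and 62.8, and those of day 13 had 65.0, 63.1 and 53.6. From day 15 on the values were 66.3, 65.6 and 62.7 CPM, then 64.9, 63.9 and 63.2 on day 18, 64.5, 61.6 and 69.1 on day 20, and 58.8, 63.8 and 67.4 on day 30. The timepoints overlapped throughout, and the widest spread lay between replicates of 6 dpa. Its 8 timepoint means stayed within 0.12 on the log2 scale, and timepoint took 12.3% of its variance in log2 CPM. Such a share also holds replicate spread, for which it was not corrected. The annotated gene spans 579 bases, which is also its coding length, so the model has no intron.

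TRITD3Bv1G276880 (3B, 822383474 to 822386848) had a CV of 9.22%, with 36.2 to 49.8 CPM over the 24 libraries. TRITD3Av1G216980 (3A, 597327008 to 597331563) had a CV of 9.83% and 28.6 to 41.9 CPM. These 3 genes stood below a closely spaced group. TRITD6Bv1G048050 on 6B, TRITD5Av1G202360 on 5A, TRITD7Bv1G091990 on 7B, TRITD5Av1G222440 on 5A, TRITD3Av1G181020 on 3A, TRITD1Bv1G226320 on 1B and TRITD1Av1G137630 on 1A had CVs of 11.2 to 11.6%. In TRITD5Av1G202360 a single library stood out, with 57.1 CPM in 13 dpa replicate 3 but 77.0 to 107 CPM in all others.

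The level at which the 150 genes were steady depended on the scale. The geometric mean of their TMM-scaled CPM lay between 37.3 and 49.9 in every library, a range of 1.34-fold, with timepoint means from 40.9 ± 2.56 CPM at 20 dpa to 47.3 ± 2.22 CPM at 10 dpa (SD, n = 3). The geometric mean of their TPM started at 124 ± 5.96 on day 6 and 126 ± 2.09 on day 8, and continued with 117 ± 8.93 on day 10, 97.1 ± 11.3 on day 13 and 77.2 ± 6.65 on day 15. Day 18 gave 61.0 ± 7.26, day 20 gave 58.4 ± 0.493 and day 30 gave 44.2 ± 3.01 TPM. The libraries of 6 and 30 dpa did not overlap in TPM, while in CPM they did.

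**Figure D2:**
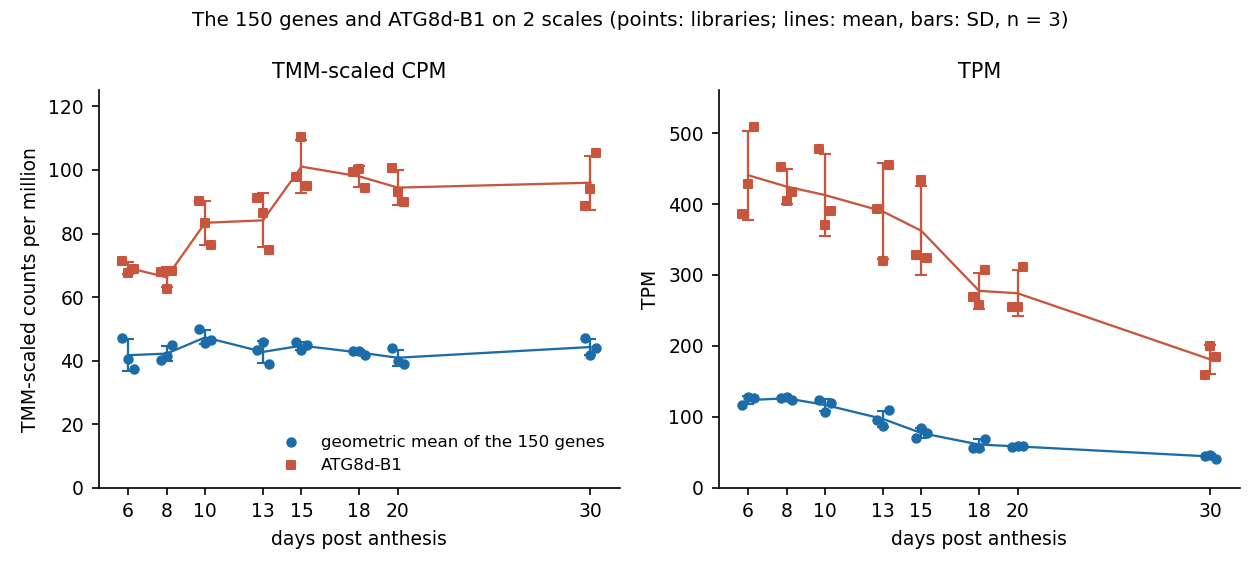
Geometric mean of the 150 genes and the level of ATG8d-B1 against days post anthesis, in TMM-scaled CPM (left) and TPM (right), with a point per library, lines through the timepoint means and bars for the SD (n = 3). The 150 genes stay between 37.3 and 49.9 CPM but drop from 117 to 128 TPM at 6 dpa to 40.9 to 46.7 TPM at 30 dpa.

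In TPM, all 150 genes had a lower mean at 30 than at 6 dpa, with a median log2 difference of -1.46 and 134 of them at least 2-fold lower. In TMM-scaled CPM, 62 were lower at 30 dpa and the median log2 difference was 0.10. Over all 44240 genes tested, the median log2 difference was -0.01 in TMM-scaled CPM and -1.10 in TPM with 0.1 added, so the 2 scales also differed for the typical gene. The summed TPM of the 150 genes was 2.63 to 2.68% of each library at 6 dpa and 0.809 to 0.913% at 30 dpa. In bulk RNA of this kind, fewer cells of a type and less RNA per cell cannot be told apart, and neither scale gives molecules per cell.

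Steady did not mean without any movement over time. A differentially expressed gene (DEG) had an FDR of at most 0.05 in edgeR's quasi-likelihood test and a fold change over 1.5 between 2 timepoints. Of the 150, 33 were DEGs in at least 1 of the 28 pairs of timepoints (22%), where 84% of all genes tested and 87.9% of the candidates were. Of these 33, 17 were DEGs in 1 pair and 4 in 3 pairs or more, while 117 were DEGs in none. In the test over all 8 timepoints, 51 passed (34%, against 74.4% of all genes tested), and 62 did without 13 dpa replicate 3, where 75.6% of all genes did. In sequential comparisons 1 member was a DEG, at 30 against 20 dpa, where the background in at least 1 of 7 such comparisons was 26.3%. The low variation of the members in the same libraries chose them, so these shares are read only as a description.

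The size of the movements was small. The difference between the highest and lowest timepoint mean of a member had a median of 0.48 and a maximum of 0.80 on the log2 scale, against a median of 1.22 over the candidates. It was below 1.5-fold in 117 members. A low CV over the 24 libraries bounds these differences, so their small size follows from the choice. The timepoint took a median of 52.5% of the variance in log2 CPM of the members and 80.2% of that of the candidates, and the remaining spread lay between replicates, with a median CV within timepoints of 12.2%. Means of 3 libraries differ by replicate spread alone, and these shares were not corrected for that. Part of each share can therefore arise without a change over time.

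Between 6 and 30 dpa, 9 members rose and 3 fell as DEGs, against 57.7% of all genes tested called in either direction. This split changed with the scaling, to 3 higher and 4 lower with the size factors of DESeq2. At the FDR alone, without the fold, 43 members passed, where 62.1% of all genes did. The members named here and below, other than ATG8d-B1, were chosen for low spread in these same libraries. Those of largest rise, fall or range were also picked by that change itself. Adjusted p-values, SEs and the separation of libraries are therefore given for them as descriptions. The largest rise was that of TRITD5Bv1G111280 (5B, 327010277 to 327013212), with 17.7, 17.3 and 13.6 CPM at 6 dpa and 26.3, 27.3 and 28 CPM at 30 dpa. The libraries of these timepoints were apart, and the log2 change was 0.75 ± 0.14 (SE; edgeR adjusted p = 7.74e-05). In TPM the same gene went the other way, from 48.4 to 61.2 at 6 dpa to 28.7 to 34.4 at 30 dpa. TRITD5Bv1G215100 (5B, 608019083 to 608020238) rose from 45.5, 36.6 and 51.4 CPM to 70.1, 84.7 and 60.8 CPM, a log2 change of 0.69 ± 0.15 (SE; edgeR adjusted p = 0.000438).

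The largest fall was that of TRITD3Av1G045810 (3A, 101491257 to 101493161), from 38.9, 33.1 and 28.2 CPM at 6 dpa to 22.7, 19.1 and 19.7 CPM at 30 dpa. Its log2 value fell by 0.71 ± 0.14 (SE; edgeR adjusted p = 0.000177), and its highest mean, 35.7 ± 1.89 CPM, was at 10 dpa (SD, n = 3). TRITD3Av1G086400 (3A, 213612779 to 213614811) had means between 17.3 and 20.7 CPM up to 18 dpa, then 14.8 ± 2.30 CPM at 20 dpa and 12.3 ± 1.63 CPM at 30 dpa (SD, n = 3). Its value fell by 0.66 ± 0.15 on the log2 scale from 6 to 30 dpa (SE; edgeR adjusted p = 0.000685). All its 30 dpa libraries lay below all its 6 dpa libraries.

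TRITD2Av1G084310 (2A, 200254563 to 200259013) had the second widest range of timepoint means, 0.78 on the log2 scale. It stood at 42.9, 39.3 and 38.0 CPM at 6 dpa and 51.7, 52.7 and 50.4 CPM at 8 dpa, and then at 68.9, 66.5 and 63.6 CPM at 10 dpa, with no overlap between these timepoints. At 13 dpa it had 67.4, 73.5 and 47.9 CPM, the last again in replicate 3, and at 30 dpa 61.5, 64.3 and 60.7 CPM. It rose by 0.63 ± 0.14 on the log2 scale between 6 and 30 dpa (SE; edgeR adjusted p = 0.000506) and was a DEG in 5 of the 28 pairs, as were TRITD3Av1G086400 and TRITD5Bv1G111280.

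**Figure D3:**
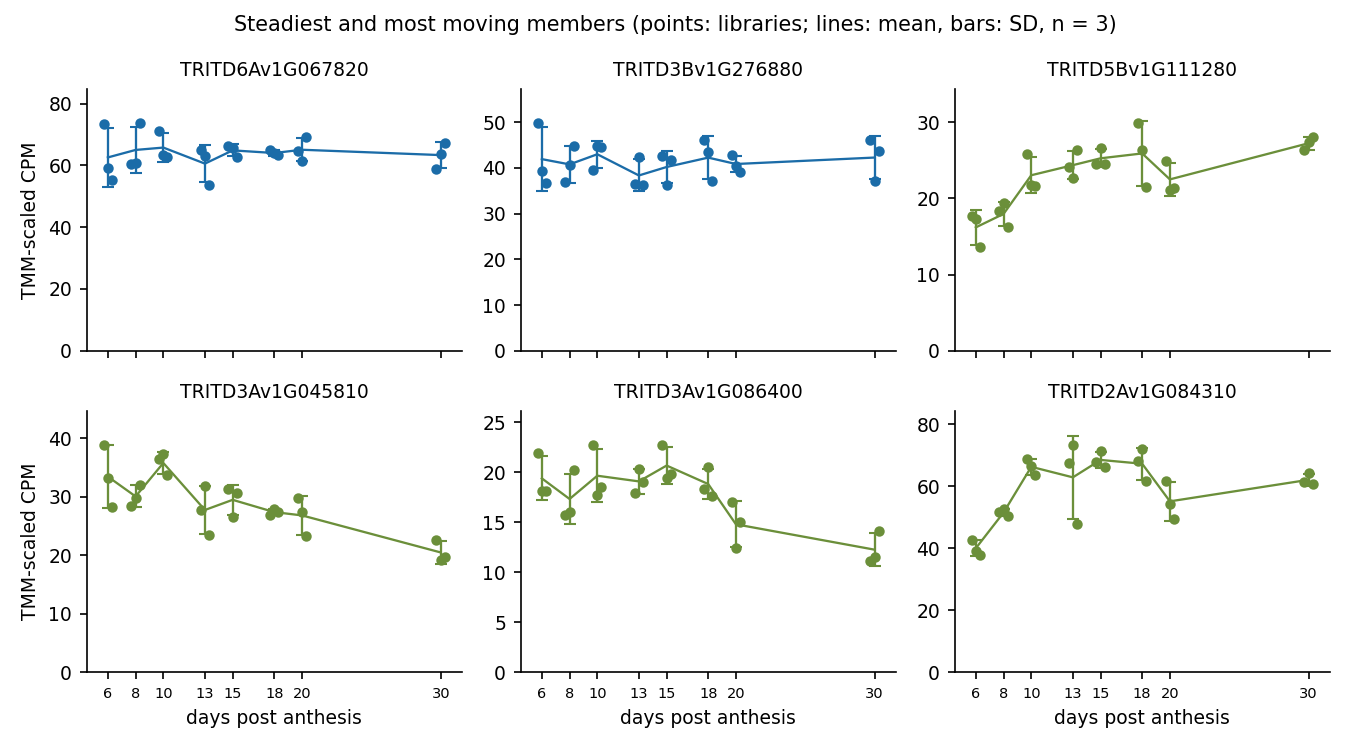
TMM-scaled CPM of 6 members against days post anthesis, with a point per library, lines through the timepoint means and bars for the SD (n = 3), each axis starting at 0. TRITD6Av1G067820 and TRITD3Bv1G276880 (blue) run level, TRITD5Bv1G111280 and TRITD2Av1G084310 are lowest at 6 dpa, and TRITD3Av1G045810 and TRITD3Av1G086400 are lowest at 30 dpa.

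The small movements did not fall evenly over the timepoints. For 51 members (34%) day 10 had the highest mean and for 36 (24%) day 30, against 25.6 and 20.7% of the candidates. Day 6 had the lowest mean for 34 members (22.7%), day 20 for 33 (22%), day 8 for 23 (15.3%) and day 18 for 22 (14.7%). The shares of candidates lowest on these days were 36.0, 12.1, 7.7 and 16.7%. Day 13 had the lowest mean for 18 members (12%) and day 30 for 19 (12.7%), against 2.44 and 22.6% of the candidates. No member had its lowest mean on day 10. Among the candidates 1.48% were lowest there, so the tilt toward day 10 was not seen in the members alone. Members also moved together between libraries of a timepoint. At 6 dpa, 103 members were above their own median in replicate 1, 52 in replicate 2 and 21 in replicate 3, and the geometric mean of the candidates was 75.7, 60.6 and 55.01 CPM in these libraries. The correlation of 2 members over the 24 libraries, after each timepoint mean was taken off, had a median of 0.31 (Pearson's r in log2 CPM, a description over libraries that share the same scaling factors).

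The 150 covered a wide span of levels. TRITD3Bv1G234280 (3B, 715915368 to 715916483) had the highest mean TPM, 1206, with 2450, 1886 and 1970 TPM at 6 dpa and 516, 468 and 557 TPM at 30 dpa. TRITD2Av1G059310 (2A, 134177906 to 134178661) followed with a mean of 903 TPM. In CPM these 2 genes had 160 to 289 and 121 to 207 over the 24 libraries.

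The lowest mean TPM were those of TRITD4Bv1G007410 (4B, 19082677 to 19086243) at 35.5 and TRITD5Av1G126640 (5A, 358008414 to 358010912) at 35.9. Both rose in CPM between 6 and 30 dpa. TRITD4Bv1G007410 rose by 0.56 ± 0.12 on the log2 scale and TRITD5Av1G126640 by 0.40 ± 0.11 (SE; edgeR adjusted p = 0.000321 and 0.00494). Even so, both were lower in TPM at 30 dpa, with 20.1 to 23.6 and 22.8 to 26.1 TPM, just above the limit that admitted them. The median of the mean TPM over the 150 was 76.0, and over the candidates 122.

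ATG8d-B1 entered the report as the RT-PCR reference and not for its CV, so its change over time was tested. Replicates 1, 2 and 3 of day 6 had 71.3, 67.5 and 68.8 CPM, those of day 8 had 67.8, 62.7 and 68.2, those of day 10 had 90.4, 83.3 and 76.5, and those of day 13 had 91.3, 86.5 and 74.7. The later values were 97.7, 110 and 95.0 CPM on day 15, 99.5, 100.2 and 94.3 on day 18, 100.5, 93.1 and 89.8 on day 20, and 88.8, 93.9 and 105 on day 30. All libraries from 10 dpa on lay above all libraries of 6 and 8 dpa. The change over the 8 timepoints passed the test (edgeR adjusted p = 0.000603), and the level at 30 dpa was higher than at 6 dpa by 0.47 ± 0.12 on the log2 scale (SE; edgeR adjusted p = 0.00232). In 1 of the 28 pairs it was a DEG, 15 against 8 dpa, with a log2 change of 0.61 (edgeR adjusted p = 0.000349). This lay close to the fold limit, and the range of its timepoint means was 0.57 without 8 dpa replicate 2, 13 dpa replicate 1 or 15 dpa replicate 2, under the log2 limit of 0.585.

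In TPM ATG8d-B1 took the opposite course, with 385 to 509 on day 6 but 159 to 199 on day 30. Against the geometric mean of the other members its log2 ratio was 0.60 to 0.89 on day 6, then 1.19 to 1.23 on day 18 and 0.92 to 1.27 on day 30. Ranked by the mean SD of its log2 ratios to the other members, 0.30, it stood at 123 of the 150, while by CV it was at 78. A pair of members had a median SD of 0.27 in log2 ratio, and a pair of candidates 0.66. Low variation in these same libraries chose the members, so a small spread between them follows from the choice. The ratios of ATG8d-B1 to them largely repeat its course in CPM and are no separate check of it.

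Fragment length differed between the libraries, and it bears on a transcript as short as ATG8d-B1, whose coding length is 360 bases. kallisto divides a count by an effective length when it makes TPM, the transcript length less the mean length of those fragments that could fit in it, so that longer fragments leave a short transcript fewer places to start. The mean fragment length implied by the 2 deposited values of long transcripts was 266 ± 13.2 bases at 6 dpa and 222 ± 2.44 bases at 30 dpa (SD, n = 3), and it ran from 218 to 296 bases among the replicates of 20 dpa. The effective length of ATG8d-B1 was 96.5 to 118 bases on day 6 and 141 to 146 bases on day 30. In a fit to counts corrected for effective length, chosen after the data were seen, ATG8d-B1 changed by 0.09 on the log2 scale between 6 and 30 dpa (edgeR adjusted p = 0.642), and the change over the 8 timepoints did not pass (edgeR adjusted p = 0.127). The range of its timepoint means was 0.48 on the corrected scale and 0.61 as counted, and its mean log2 ratio to the other members went from 0.73 on day 8 to 1.21 on day 15 as corrected and from 0.65 to 1.18 as counted. On the corrected scale it had 67.7 to 84.6 CPM on day 6, then 91.2 to 110 CPM on day 15 and 75.5 to 89.9 CPM on day 30.

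**Figure D4:**
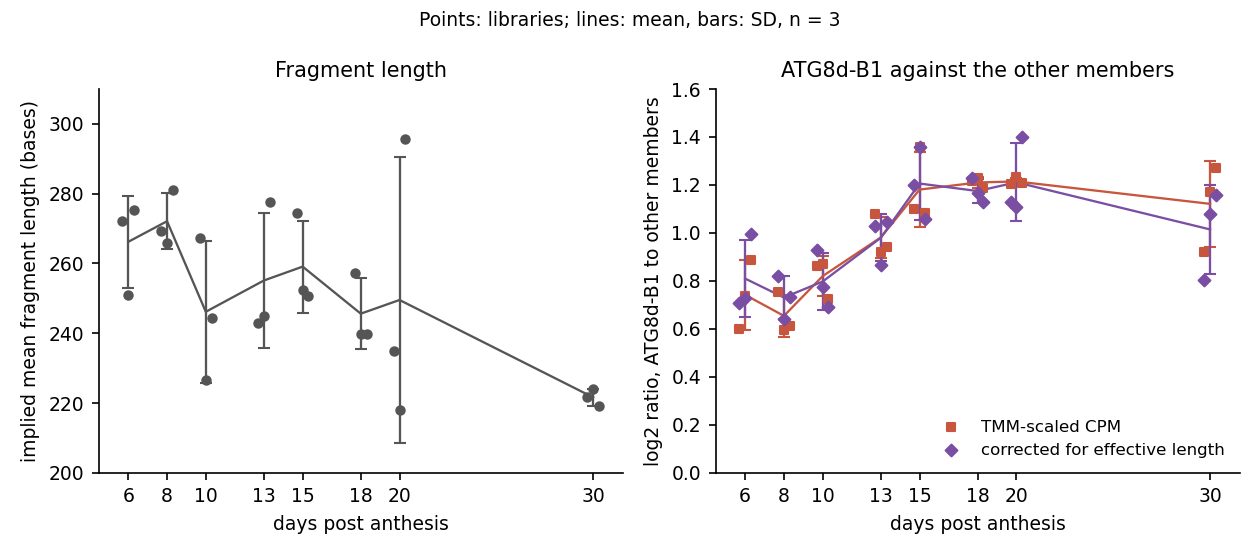
Left, mean fragment length (bases, axis from 200) implied by counts and TPM in each library. Right, log2 ratio of ATG8d-B1 to the geometric mean of the other members, in TMM-scaled CPM and after correction for effective length; points are libraries, lines timepoint means, bars the SD (n = 3). Fragments are shortest at 30 dpa at 219 to 224 bases, and the uncorrected ratio is 0.60 to 0.89 on day 6 but 0.92 to 1.27 on day 30, the corrected one 0.71 to 0.99 and 0.81 to 1.16.

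The correction acted most on members of up to 400 bases. In the 19 members of up to 300 bases the median log2 difference between 30 and 6 dpa was 0.00 as counted and -0.55 after correction, and in the 28 members of 300 to 400 bases it was -0.11 and -0.52. In the 44 members of 600 to 1000 bases it was 0.21 and 0.17. The median CV of those groups changed from 16.6 to 24.6%, from 15.8 to 22.5% and not at all when rounded, at 14.8%. For the 47 members of 400 to 600 bases the log2 difference was 0.07 and -0.12, and the median CV 15.7 and 16.3%. For the 12 members over 1000 bases the log2 difference was 0.15 and 0.20, and the median CV 16.5 and 16.8%. Of the 150, 51 had a lower CV after correction. The members were chosen for a low CV in uncorrected counts, so higher values on another scale follow in part from the choice. Corrected values of candidates of the same length were not set beside them, so the part due to the correction was not tested. With corrected counts 62 of the 150 were DEGs in at least 1 pair of timepoints, where 84% of all genes tested were. Between 6 and 30 dpa 26 members were then lower and 4 higher as DEGs, while 49.4% of the DEGs among all genes were higher at 30 dpa.

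As the scale of the whole data set, ATG8d-B1 and the other members gave different splits. With ATG8d-B1 alone as the scaling gene, the median log2 change of all genes tested between 6 and 30 dpa was -0.48, and 33.6% of DEGs were higher at 30 dpa. With the geometric mean of the members other than ATG8d-B1 the median was -0.10 and the share 46.4%, and with TMM they were -0.01 and 49.7%. The members were chosen for being level in TMM-scaled CPM, so that their scale lies near TMM follows from the choice and is no support for it. The number of DEGs was 25997, 25231 and 25547 on these 3 scales.

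The candidates and the members were short transcripts. The median coding length was 474 bases in the members, 510 in the candidates and 1167 in all genes tested, and 62.7% of members, 59.4% of candidates and 24.5% of all transcripts listed were under 600 bases. Members made up 14.1% of the candidates of 600 to 1000 bases and 5.06% of those over 1000 bases. The A subgenome held 69 members and the B subgenome 74, with 7 on sequence not placed on a chromosome (46.0, 49.3 and 4.67%, against 48.2, 48.3 and 3.48% of the candidates). Of the 143 members with a position, 53.8% lay in the outer 20% at either chromosome end, against 51.5% of the candidates.

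A run of 5 members near the end of chromosome 1B was adjacent in the RefSeq table, though mostly not close in bases. TRITD1Bv1G226320, TRITD1Bv1G226330, TRITD1Bv1G226440, TRITD1Bv1G226450 and TRITD1Bv1G226520 stand between 672567602 and 674037459, with no other gene of the RefSeq table between neighbours. From left to right, 19979, 445958, 236076 and 758402 bases lay between neighbours. Their coding lengths are 396 bases for the 2 on the left and 441 for the other 3, and their CVs ran from 11.5 to 16.3%. Their mean CPM were 26.8, 42.4, 49.0, 49.0 and 110. TRITD1Bv1G226440 and TRITD1Bv1G226450 had the same value in every library, as had TRITD5Av1G101440 on 5A and TRITD5Bv1G082920 on 5B, both of 222 bases with a mean of 41.2 CPM. kallisto divides reads that fit several transcripts, so such copies are not separate evidence, and how the reads of the 1B run divide is uncertain. These 4 adjacent pairs were part of 8 pairs of members within 1 Mb, among them TRITD3Bv1G276880 and TRITD3Bv1G277300 on 3B, with 14 genes between them. Such pairs were not counted among the candidates, so whether members lie closer together was not tested.

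How far the choice carried over to other libraries was read by leaving out a replicate number, choosing 150 genes on the other 16 libraries and reading their CV in the 8 left out. The median CV was 14.1, 16.3 and 14.3% in the libraries used and 17, 13.5 and 16.6% in those left out, where the candidates had medians of 34.9, 30.8 and 34.1%. Of the 150 chosen, 148, 150 and 149 lay below the candidates' median in the libraries left out, and 82, 102 and 85 were among the 150 lowest there. The lists shared 126, 137 and 109 genes with the list from all libraries. The 16 libraries behind each list also helped to choose the list from all libraries. Much of this overlap is therefore built in, and it is no check of the choice. The libraries left out came from the same timepoints, and some from the same plants.

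The list changed little with the size factors of DESeq2 (140 of 150 genes shared) or without the 100 most abundant transcripts (141), and more with the CV of timepoint means (124), correction for effective length (112) or the SD of log2 ratios to all candidates (105). All 10 of the steadiest genes stayed in the list in each of these. With a limit of 10 TPM the candidates became 2786 and 51 genes were shared, and at 50 TPM 472 candidates gave 39 shared genes and only 1 of the 10. The list from deposited TPM shared 12 genes and that from CPM by library totals alone shared 3, with none of the 10 in either.

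**Figure D5:**
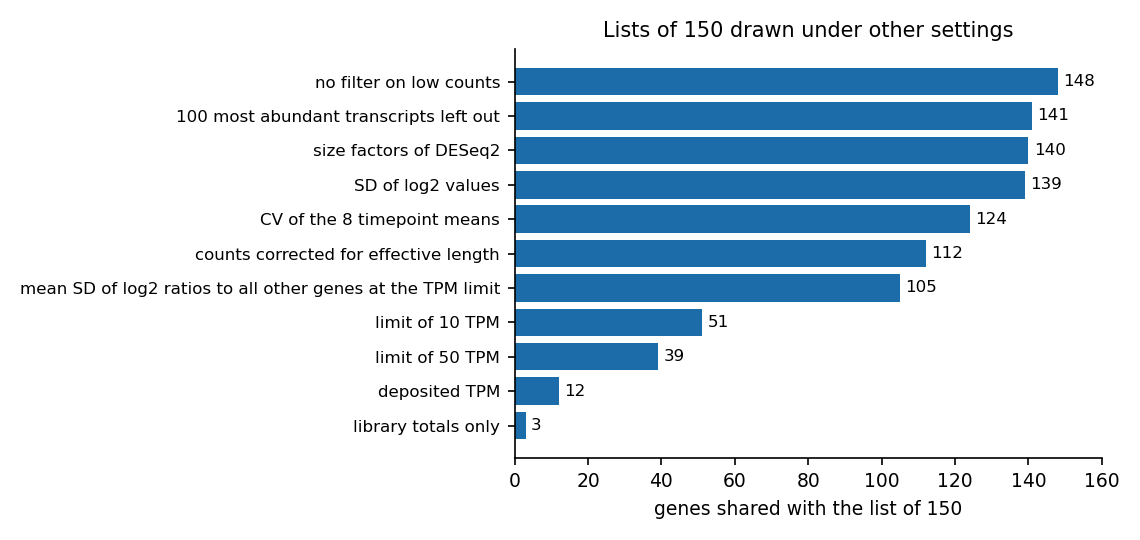
Number of genes that lists of 150 drawn under other settings share with the list described here. Bars run from 148 genes without a filter on low counts to 12 with deposited TPM and 3 with library totals only.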

How the data were processed

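Clean paired reads were pseudoaligned by the authors with kallisto (0.46.1 in the submitters' processing notes) to canonical transcripts of the Svevo v1 durum wheat annotation. The estimated counts were deposited by the authors without scaling between libraries, and the deposited TPM values came from the same runs, scaled by effective length to a fixed total; 0 sample columns were left unused. Counts were rounded, and 44240 genes with at least 10 counts in 3 libraries were scaled by TMM and tested with edgeR 4.0.16 (R 4.3.3; quasi-likelihood F test, 8 timepoints in 1 model, Benjamini-Hochberg over all genes tested), after the scripts were tested on simulated data. Calls of DEGs needed an FDR no higher than 0.05 and a fold over 1.5. The study's methods name DESeq2, which was run as an alternative (1.42.0). Effective lengths were recovered from counts and TPM, with the fragment length of each library taken from 2955 transcripts of 1500 to 6000 bases with at least 500 counts. Lengths are coding lengths, since 99.9% of those listed are multiples of 3.

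The members, lists and tests were chosen with earlier results of these data known. Genes named are the 10 with the lowest CV, the 2 with the highest and lowest mean TPM, those just inside and outside the limit, the 2 with the largest rise, fall and range, the 2 steadiest starch-related genes and ATG8d-B1; the genes of the 1B run, the pair on 5A and 5B and single libraries were named after their values were seen. Positions came from the RefSeq table of Svevo.v1, in which 143 of the 150 identifiers matched. Product names, homeolog pairs and gene sequences were not used here. Replicates of a timepoint were separate plants. Over 84 pairs of same-numbered libraries, the correlation of deviations from the timepoint means ran from -0.40 to 0.38. Over 168 pairs with other numbers it ran from -0.50 to 0.38. It was over 0.1 in 27 of the 84 and 36 of the 168. The numbers were not used to pair libraries, and the model holds no term for plants that gave spikes to several timepoints. The depth gave members 201 counts or more in every library.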

Additional observations from a re-analysis of the deposited data

How the results depend on the processing

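What was steady depended first on the scale. With library totals alone, the median CV of the 150 was 40.5%, their median log2 change between 6 and 30 dpa -1.64, and all 150 were DEGs and passed over the 8 timepoints, where 93.9 and 84.5% of all genes did. ATG8d-B1 then changed by -1.28 on the log2 scale and ranked 136, and TRITD5Bv1G111280 (-0.99), TRITD5Bv1G215100 (-1.06), TRITD2Av1G084310 (-1.11), TRITD4Bv1G007410 (-1.18), TRITD5Av1G126640 (-1.34), TRITD3Bv1G277300 (-1.33) and TRITD1Av1G037730 (-1.11) were lower at 30 dpa. Deposited TPM gave a median CV of 38.1%, a median log2 of -1.47 and rank 151 for ATG8d-B1. These lists shared 3 and 12 genes with the main one, and limits of 10 and 50 TPM gave 51 and 39 shared genes and ranks of 229 and 16. ATG8d-B1 ranked 179 by timepoint means and 208 by log2 ratios. Correction for effective length, chosen after the data were seen, gave a median log2 of -0.095, 62 DEGs (84% of all genes), rank 37, and for ATG8d-B1 a log2 change of 0.089 and a range of 0.48 that did not pass.

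A filter of 10 CPM in 3 libraries left 21 member DEGs, of 148 members tested (84.2% of all genes). A log2 threshold of 1.5 left 0 (55.7%), and no fold threshold 102 (88.2%). In DESeq2's own test 26 members were DEGs and 74 passed over the 8 timepoints, against 84.9 and 78.6% of all genes. Leaving out 1 library at a time, or 1 replicate number for the list, gave 109 to 150 shared genes, a median CV of 14.9 to 16.0%, a median log2 of 0.01 to 0.17, 28 to 41 DEGs, 41 to 62 members past the test over timepoints, ranks of 54 to 109 for ATG8d-B1, and for it a log2 change of 0.40 to 0.53 and a range of 0.57 to 0.65, past the FDR each time. With 1 library left out, the list lost most genes without 10 dpa replicate 1 (128 shared) and 30 dpa replicate 3 (130). The libraries kept had also chosen the main list, so much of the sharing is built in. With the replicate number as a block, 33 members were DEGs and 50 passed over the timepoints, and ATG8d-B1 changed by 0.47; no named call changed. At log2 0.62, TRITD1Av1G037730, the last gene inside the limit, lost its call between 6 and 30 dpa without 6 dpa replicate 3 (0.54) or 30 dpa replicate 2 (0.53).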
